A study of Homo sapiens with 12 samples.

Results

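The isoform genes of glucose uptake and glycolysis examined here were SLC2A1, SLC2A3, HK1, HK2, HK3, PFKFB3, PFKFB4, PFKP, PKM and LDHA, chosen by name from the gene count table. All 10 were among its 59251 genes and all 10 passed the filter on low counts, which 13318 genes passed. RNA-Seq was performed on HL60 cells, a human acute myeloid leukemia cell line, in 12 libraries. Non-treated cells, cells given 1 µM all-trans retinoic acid (ATRA, a ligand of the retinoic acid receptor), cells given 1 µM palbociclib (CDK4/6i, an inhibitor of the cell cycle kinases CDK4 and CDK6) and cells given 1 µM of both (CDK4/6i+ATRA) each had 3 libraries, taken at 48 h. All groups were the same line, and the labels name no vehicle for the non-treated cells. The labels call the libraries of a group biological replicates without naming a culture or day for each, so the p-values measure the spread between these libraries.

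Glucose enters cells through facilitative transporters and is trapped by hexokinases, which attach a phosphate to it. Phosphofructokinase then commits the sugar to glycolysis under the control of fructose-2,6-bisphosphate, which the bifunctional PFKFB enzymes make and degrade. Pyruvate kinase forms pyruvate at the end of the pathway, and lactate dehydrogenase turns it into lactate. Most of these steps have several isoforms encoded by separate genes, whose use differs between tissues and between growing and mature cells. Neutrophils and other mature myeloid cells are known for relying on glycolysis.

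Library totals were between 15392648 and 16935515 counts in non-treated cells, 15238994 and 17010052 with ATRA, 15576806 and 18679544 with CDK4/6i, and 12230923 and 14415276 with CDK4/6i+ATRA. Levels are given as CPM, the counts of a gene relative to the library total, which was scaled by the trimmed mean of M values (TMM), and a floor of 3 counts was between 0.161 and 0.245 CPM. Fold changes are on the log2 scale with their standard errors (SE), and a gene was called at an adjusted p below 0.05 in edgeR's quasi-likelihood test over all tested genes. MPO, the granule peroxidase that defines promyelocytes, was at 6517 CPM in non-treated cells, whereas ELANE, PRTN3 and AZU1, which encode other proteins of the same granules, had 0 counts in every library. The table lists ELANE, PRTN3 and AZU1 on an alternate contig as well as on their chromosome, and how reads that match both copies were counted is not given in the sources used here, so their 0 counts do not show that the genes were silent. Sums over the lists of erythroid, lymphoid and epithelial or stromal markers were below 32 CPM in every library, with 7 of 8, 4 of 8 and 8 of 8 of their genes at or below the floor in non-treated cells. The 10 markers of myeloid identity, MPO among them, summed to between 7418 and 7749 CPM in non-treated cells, 1843 and 1922 CPM in ATRA cells, 4561 and 4672 CPM in CDK4/6i cells and 2116 and 2145 CPM in CDK4/6i+ATRA cells, and 3 of the 10 had 0 counts in every library. MPO held most of the non-treated sum. Of the 7 tested markers, 3 were called higher and 4 lower with ATRA, beside 32.1% and 35.5% of all tested genes. With CDK4/6i 4 were higher and 3 lower (28.3% and 27.9% of all tested genes), and with both agents 3 were higher and 3 lower (41.0% and 40.7%). The 10 markers of myeloid maturation summed to between 254 and 271 CPM in non-treated cells, between 6691 and 7049 CPM in ATRA cells, between 723 and 752 CPM in CDK4/6i cells and between 8412 and 8671 CPM in CDK4/6i+ATRA cells. The 10 proliferation markers summed to between 3678 and 3743, 4274 and 4359, 475 and 493, and 104 and 107 CPM in the same order. Identity, maturation and cell cycle genes therefore moved with the treatments beside every result below, and their part in those results was not tested. In bulk RNA, fewer cells of a type and less RNA per cell cannot be told apart.

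The promoters of the gene with the largest rise (HK3), the gene with the largest fall (LDHA) and the hexokinase that HK3 overtook (HK2) are shown for the letters that lie in front of each start. The sequences are from RefSeq on GRCh38.p14, 250 bases up to the base before the start site, 5′ to 3′ on the strand of the gene. Capitals mark CACGTG (the E-box that MYC and other factors read) and ACGTG or GCGTG (the core read by hypoxia-inducible factors, which CACGTG also contains) on either strand. HK3 lies at chr5:176899347-176899596 on the minus strand, HK2 at chr2:74833877-74834126 on the plus strand and LDHA at chr11:18394313-18394562 on the plus strand.
HK3: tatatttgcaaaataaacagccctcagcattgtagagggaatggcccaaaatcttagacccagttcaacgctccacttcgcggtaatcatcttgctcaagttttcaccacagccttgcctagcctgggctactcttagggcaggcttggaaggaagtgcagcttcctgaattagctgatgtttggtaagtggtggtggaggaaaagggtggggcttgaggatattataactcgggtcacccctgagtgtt
HK2: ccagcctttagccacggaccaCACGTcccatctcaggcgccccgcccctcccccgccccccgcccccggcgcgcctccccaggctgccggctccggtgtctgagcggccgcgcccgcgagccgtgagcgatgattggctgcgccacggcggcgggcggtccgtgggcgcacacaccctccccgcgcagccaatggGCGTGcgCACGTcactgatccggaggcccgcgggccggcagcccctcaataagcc
LDHA: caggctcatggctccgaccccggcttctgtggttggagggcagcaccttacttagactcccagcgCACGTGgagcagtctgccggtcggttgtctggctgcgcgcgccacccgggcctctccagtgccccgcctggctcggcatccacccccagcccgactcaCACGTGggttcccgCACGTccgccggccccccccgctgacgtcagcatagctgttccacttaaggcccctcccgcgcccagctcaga

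The LDHA window held 2 copies of CACGTG, 81 and 179 bases before the start, and 1 further ACGTG on the minus strand. The HK2 window held no CACGTG and 3 copies of ACGTG or GCGTG, and the HK3 window held none of these. RefSeq gives HK2 another start 1043 bases away, whose window held 2 copies of CACGTG, so the absence holds for the printed window only. CACGTG was found in 6.34% of the 35116 windows of the same length, and ACGTG or GCGTG in 43.2%. Of the 9 genes with a window in the table (all but SLC2A3), LDHA and PFKFB3 held CACGTG and 5 held ACGTG or GCGTG in the window nearest the start of the reference transcript, and 3 held CACGTG in any of their 21 windows. For HK1 and PFKP the start site of the nearest window was 217 and 422 bases from that of the reference transcript, so their windows describe another start. Both windows lie within the stated span of their gene, at 69318814 to 69319063 for HK1 and 3067720 to 3067969 for PFKP. They can therefore hold transcribed bases. AGGTCA, a motif of nuclear receptors, was in the HK1 window, against 12.1% of all windows. Since that window lies inside the gene, AGGTCA is not shown to be in promoter sequence there. GAGGAAGT, an exact form of the site of the myeloid factor PU.1, was in 0 of the 9 and in 2.17% of all windows. Looser forms were not searched, so this does not show that PU.1 sites are absent. LDHA fell and PFKFB3 rose with every treatment, and HK2 moved in both directions.

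Compared with non-treated cells, CDK4/6i+ATRA cells showed a rise of 6 and a fall of 4 of the 10 genes, and the median log2 fold change was 1.57, against 0.02 over all tested genes. HK3 rose 66.8-fold, SLC2A3 21.0-fold, HK1 7.59-fold, PFKFB4 5.26-fold, PKM 3.58-fold and PFKFB3 2.47-fold. LDHA fell 8.27-fold, PFKP 3.17-fold, SLC2A1 2.72-fold and HK2 1.52-fold. At the same threshold 41.0% of all tested genes were called higher and 40.7% lower, so a call by itself does not set these genes apart. HK3 stood at rank 232 from the highest fold change of the 13318 genes and SLC2A3 at rank 451, while LDHA stood at rank 672 from the lowest.

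**Figure D1:**
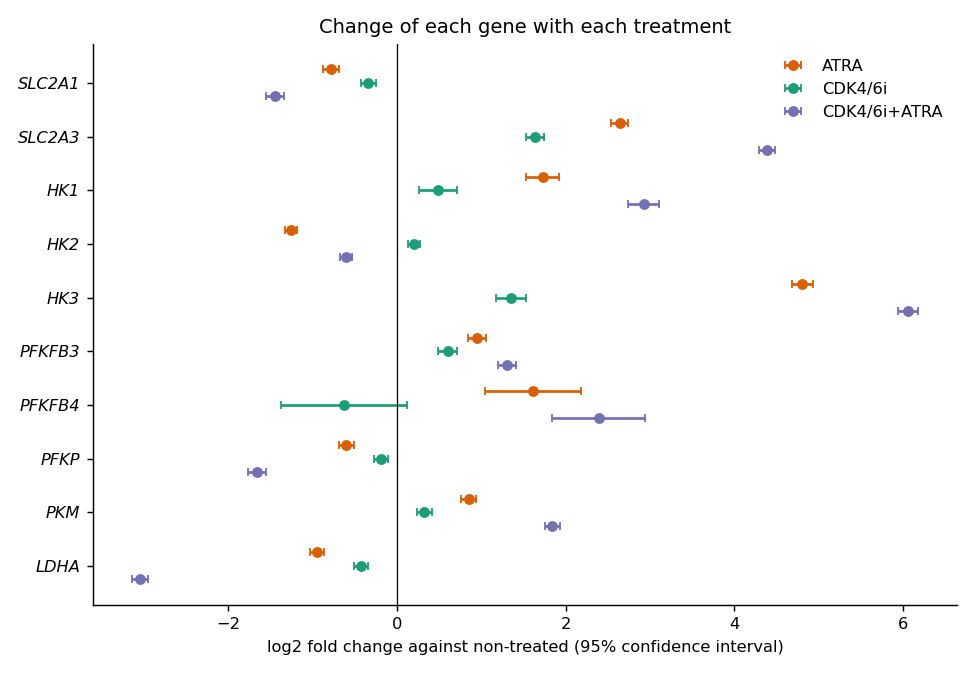
Log2 fold change of each gene against non-treated cells (horizontal axis) in ATRA, CDK4/6i and CDK4/6i+ATRA cells. Points are estimates from 3 libraries a group, and bars are 95% confidence intervals. CDK4/6i+ATRA had the largest distance from 0 of the treatments for all genes but HK2, where ATRA alone had it, and the interval of PFKFB4 with CDK4/6i spans 0.

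With ATRA alone 6 genes rose and 4 fell, with a median of 0.90, where 32.1% of tested genes were called higher and 35.5% lower. With CDK4/6i alone 6 rose, 3 fell and PFKFB4 was not called, with a median of 0.26, where 28.3% were called higher and 27.9% lower. Adding ATRA to CDK4/6i raised 6 genes and lowered 4 with a median of 1.11, beside 39.1% higher and 39.5% lower of all tested genes. Adding CDK4/6i to ATRA raised 7 and lowered 3 with a median of 0.72, beside 36.9% and 32.8%. Of these 7, PFKFB3 (adjusted p = 0.415) and PFKFB4 (adjusted p = 0.0660) were not called when the counts were scaled by library size alone. HK2 was the gene that rose when CDK4/6i was added to ATRA but fell in the other comparisons with ATRA. The comparisons share libraries and are not independent of each other.

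**Figure D2:**
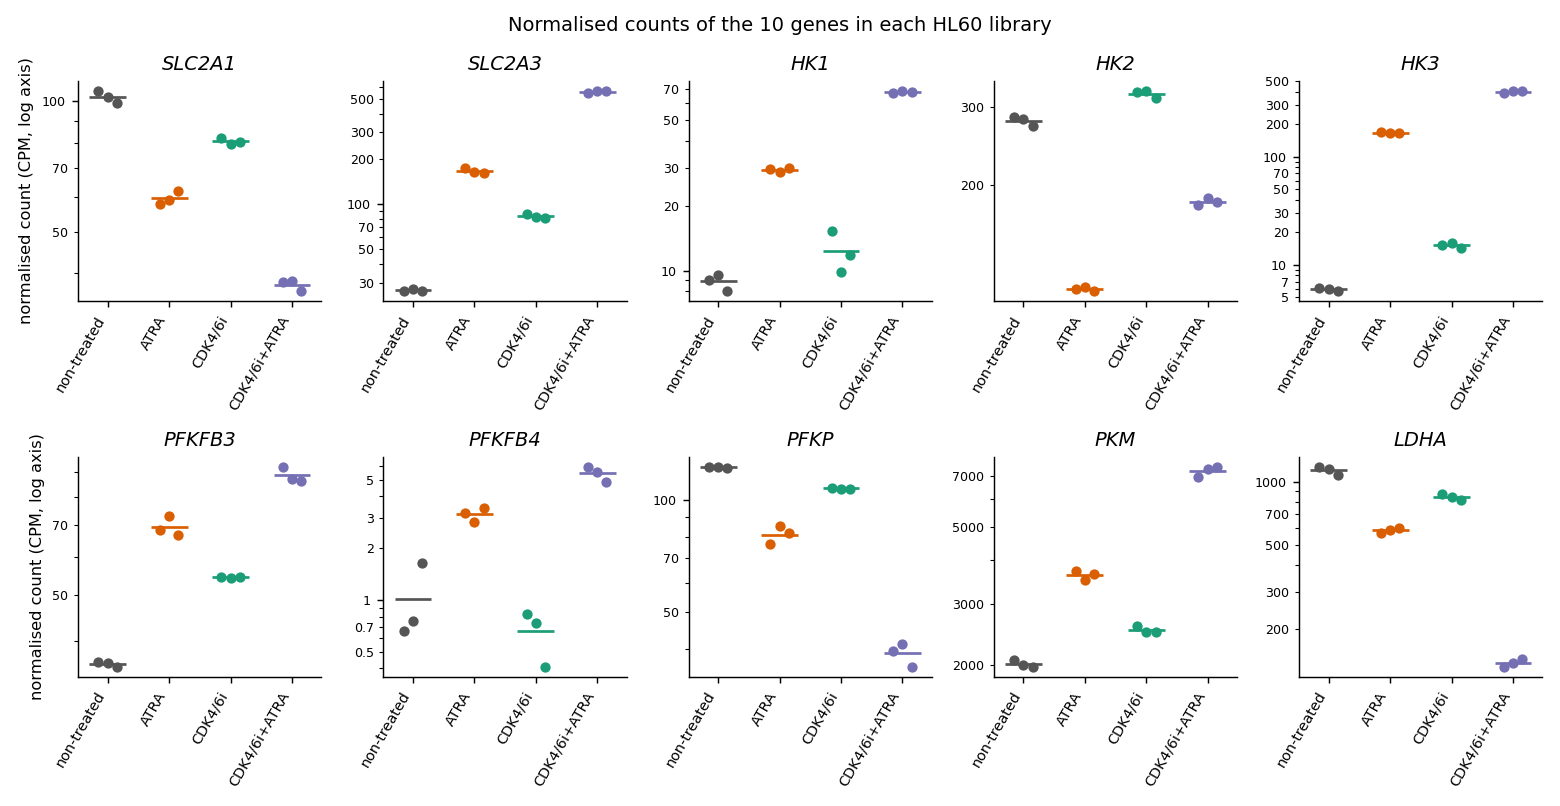
Normalised counts in CPM on a log axis, 1 panel a gene, with 1 point a library and a line at the mean of the 3 libraries of a group. The 4 groups of libraries did not overlap for 9 of the 10 genes, beside 28.5% of all tested genes, and for PFKFB4 the non-treated and CDK4/6i libraries overlapped.

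SLC2A3 encodes GLUT3, the high-affinity glucose transporter of neurons and leukocytes (chromosome 12, 7919230 to 7936187, minus strand, hg38). It was at 26.4, 27.0 and 26.5 CPM in non-treated cells, at 175, 163 and 160 CPM in ATRA cells, at 85.2, 82.3 and 81.1 CPM in CDK4/6i cells and at 548, 562 and 566 CPM in CDK4/6i+ATRA cells. The 4 groups did not overlap and ran in the order non-treated, CDK4/6i, ATRA and CDK4/6i+ATRA. The log2 fold change against non-treated cells was 2.64 (SE 0.049, adjusted p = 1.05e-41) with ATRA, 1.64 (SE 0.052, adjusted p = 2.38e-31) with CDK4/6i and 4.39 (SE 0.047, adjusted p = 1.98e-52) with both. The combined change differed from the sum of the single changes by 0.11 (95% confidence interval -0.02 to 0.25, adjusted p = 0.143).

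SLC2A1 encodes GLUT1, the transporter of most growing cells and of red cells (chromosome 1, 42925353 to 42958868, minus strand). It moved the other way, from 106, 102 and 99.3 CPM in non-treated cells to 57.9, 59.0 and 62.1 CPM with ATRA, 82.3, 79.9 and 80.4 CPM with CDK4/6i, and 38.1, 38.4 and 36.4 CPM with CDK4/6i+ATRA. No group overlapped another, and CDK4/6i+ATRA was the lowest. It fell by 0.78 (SE 0.047, adjusted p = 2.52e-20), 0.34 (SE 0.045, adjusted p = 6.82e-09) and 1.44 (SE 0.053, adjusted p = 2.28e-29) on the log2 scale with ATRA, CDK4/6i and both. Of the counts of both transporters per kilobase of gene length, SLC2A3 held 18.7% ± 0.55 (SD, n = 3) without treatment, 71.1% ± 1.6 in ATRA cells, 47.5% ± 0.34 in CDK4/6i cells and 92.9% ± 0.26 in CDK4/6i+ATRA cells. Of this pair, the higher per kilobase was thus SLC2A1 in non-treated and CDK4/6i cells and SLC2A3 in both groups with ATRA. The fructose transporter gene SLC2A5 was above both with ATRA, at 96.3 ± 0.96 CPM per kilobase beside 43.4 ± 2.0 for SLC2A3, and below SLC2A3 with CDK4/6i+ATRA, at 100.2 ± 2.3 beside 146 ± 2.5. In CDK4/6i cells the order of the pair turned without division by length, where SLC2A3 held 50.6% ± 0.34 of the counts. The exact permutation test gave p = 0.1 for each treatment against non-treated cells, the smallest that 3 against 3 libraries allow. SLC2A14, a near copy of SLC2A3, had at most 1 count in any library, and how reads that match both genes were counted is not given in the sources used here.

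HK3 encodes hexokinase 3, an isoform of myeloid cells that excess glucose inhibits (chromosome 5, 176880869 to 176899346, minus strand). It was at 6.13, 6.02 and 5.74 CPM in non-treated cells, 15.4, 15.9 and 14.5 CPM with CDK4/6i, 169, 165 and 166 CPM with ATRA, and 387, 404 and 403 CPM with CDK4/6i+ATRA. Each group stood clear of the next, and on the log2 scale the step between CDK4/6i and ATRA was the widest. The log2 fold change was 4.80 (SE 0.062, adjusted p = 1.76e-48) with ATRA, 1.35 (SE 0.090, adjusted p = 2.88e-18) with CDK4/6i and 6.06 (SE 0.058, adjusted p = 2.68e-54) with both. The difference from the sum of the single changes was -0.09 (95% confidence interval -0.29 to 0.11, adjusted p = 0.453). HK3 shares 30 exon bases with UNC5A, a gene of the plus strand with 139 counts in the 12 libraries together, beside 23320 for HK3.

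HK2 encodes the mitochondria-bound hexokinase of muscle and of many tumours (chromosome 2, 74834127 to 74893359, plus strand). It was at 285, 281 and 272 CPM in non-treated cells, at 117, 118 and 116 CPM in ATRA cells, at 324, 326 and 314 CPM in CDK4/6i cells and at 180, 188 and 183 CPM in CDK4/6i+ATRA cells. It was the 1 gene of the 10 that ATRA and CDK4/6i called in opposite directions, with the order ATRA, CDK4/6i+ATRA, non-treated and CDK4/6i and no overlap. It fell by 1.26 (SE 0.038, adjusted p = 1.48e-32) with ATRA, rose by 0.20 (SE 0.035, adjusted p = 2.46e-06) with CDK4/6i and fell by 0.60 (SE 0.038, adjusted p = 3.87e-20) with both, on the log2 scale. CDK4/6i+ATRA was 0.65 higher than ATRA alone (SE 0.040, adjusted p = 3.95e-20), and 0.35 higher when scaled by library size alone.

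HK1 encodes the hexokinase found in most tissues (chromosome 10, 69270000 to 69401882, plus strand). It was at 9.08, 9.59 and 8.05 CPM in non-treated cells, at 29.6, 28.6 and 30.1 CPM in ATRA cells, at 15.2, 9.90 and 11.8 CPM in CDK4/6i cells and at 66.7, 68.3 and 67.4 CPM in CDK4/6i+ATRA cells. The CDK4/6i libraries were the most spread, and the lowest of them was close to the highest non-treated library without overlapping it. The log2 fold change was 1.73 (SE 0.097, adjusted p = 1.58e-21) with ATRA and 2.92 (SE 0.091, adjusted p = 1.46e-32) with both. With CDK4/6i it was 0.48 (SE 0.11, adjusted p = 0.000187), and 0.29 (adjusted p = 0.0293) without CDK4/6i replicate 1.

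The hexokinase genes together rose from 27.8 ± 0.77 CPM per kilobase (SD, n = 3) in non-treated cells to 34.9 ± 0.92 with CDK4/6i, 67.0 ± 0.79 with ATRA and 151 ± 3.4 with CDK4/6i+ATRA, which was 5.45 times the non-treated level. The size of this rise depends on the division by length, since HK2 is the longer gene. In CPM without it the sum was 294 ± 7.6 in non-treated cells, 349 ± 7.7 with CDK4/6i, 313 ± 2.4 with ATRA and 649 ± 14 with CDK4/6i+ATRA, so that the rise was 1.06-fold in place of 2.41-fold with ATRA and 2.21-fold with both. Of the sum per kilobase HK2 made up 87.4% ± 0.40 in non-treated cells and 80.0% ± 1.0 with CDK4/6i, but 15.2% ± 0.28 with ATRA and 10.5% ± 0.12 with both. HK3 held 6.63% ± 0.044, 13.5% ± 0.46, 76.7% ± 0.24 and 81.2% ± 0.21 in the order non-treated, CDK4/6i, ATRA and CDK4/6i+ATRA. Without division by length HK3 held 2.03%, 4.37%, 53.2% and 61.3% in the same order, so that it also led in both groups with ATRA. Per kilobase HK1 stayed between 5.24% and 8.39% in all 12 libraries although its level rose, since the sum rose with it. The fall of HK2 was smaller in CPM per kilobase than the rise of HK3, 24.3 to 16.0 against 1.84 to 123 for the combined treatment. The exact permutation p of the HK3 share was 0.1 in each comparison with non-treated cells, the smallest possible. HKDC1, a hexokinase-like gene, had at most 2 counts in any library.

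**Figure D3:**
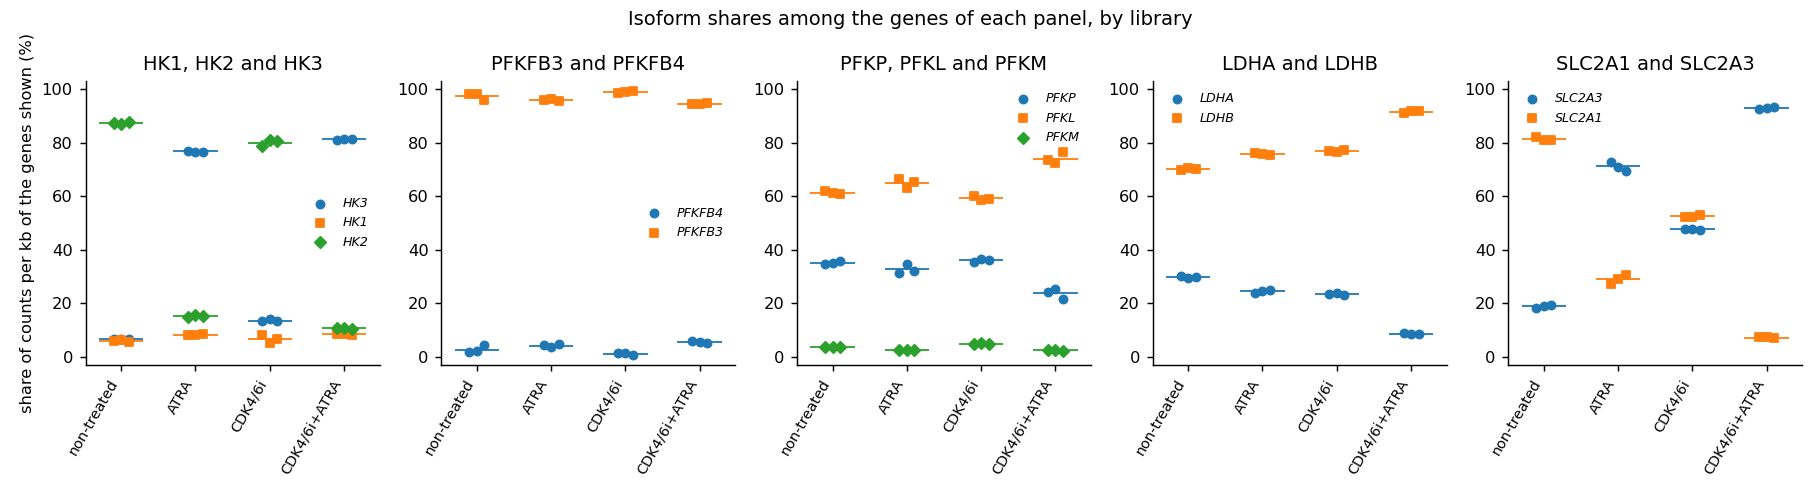
Share of the counts per kilobase of the genes of a panel (percent) held by each of them, with 1 point a library and a line at the mean of the 3 libraries of a group. HK3 replaced HK2 as the leading hexokinase and SLC2A3 held more than SLC2A1 of the counts of that pair in both groups with ATRA, while LDHA and PFKP were lowest with CDK4/6i+ATRA. The LDHA shares use its stated length of 5002 bases, which includes a fix contig.

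PFKFB3 encodes the PFKFB enzyme with the strongest kinase activity, which raises fructose-2,6-bisphosphate and drives phosphofructokinase (chromosome 10, 6144921 to 6326637, plus strand). It was at 36.2, 36.0 and 35.4 CPM in non-treated cells, at 68.3, 73.1 and 66.5 CPM in ATRA cells, at 54.4, 54.1 and 54.5 CPM in CDK4/6i cells and at 92.5, 87.2 and 86.4 CPM in CDK4/6i+ATRA cells. Each treatment lay above non-treated cells, and no groups overlapped. The log2 fold change was 0.95 (SE 0.054, adjusted p = 2.1e-21) with ATRA, 0.60 (SE 0.055, adjusted p = 1.81e-13) with CDK4/6i and 1.31 (SE 0.054, adjusted p = 3.81e-27) with both. CDK4/6i+ATRA exceeded ATRA alone by 0.36 (SE 0.050, adjusted p = 1.77e-08), which was 0.05 (adjusted p = 0.415) when the counts were scaled by library size alone.

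PFKFB4, an isoform first described in testis and induced in several tumours, had the fewest counts of the 10 genes (chromosome 3, 48517684 to 48563136, minus strand). It had 11, 12 and 29 counts in non-treated cells, 52, 49 and 62 with ATRA, 16, 12 and 7 with CDK4/6i, and 65, 62 and 59 with CDK4/6i+ATRA, which is 0.661 to 1.63, 2.86 to 3.43, 0.410 to 0.830 and 4.88 to 5.96 CPM. Non-treated replicate 3 was higher than its group, and non-treated and CDK4/6i libraries overlapped. The log2 fold change was 1.61 (SE 0.28, adjusted p = 1.78e-06) with ATRA and 2.39 (SE 0.27, adjusted p = 4.59e-11) with both. With CDK4/6i it was -0.63 (95% confidence interval -1.38 to 0.12, adjusted p = 0.147), but -0.09 (adjusted p = 0.882) without non-treated replicate 3 and -0.39 (adjusted p = 0.435) without CDK4/6i replicate 3. PFKFB4 shares 1419 of its 5832 exon bases with UCN2 on the same strand, which had 0 counts in every library, so reads from that stretch cannot be told apart. PFKFB3 held 94.3% or more of the counts per kilobase of both genes in every library, and PFKFB4 held 2.59% ± 1.4 (SD, n = 3) without treatment, 4.13% ± 0.54 in ATRA cells, 1.12% ± 0.37 in CDK4/6i cells and 5.46% ± 0.36 in CDK4/6i+ATRA cells. The exact permutation p was 0.2 for ATRA and 0.1 for the other treatments.

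PFKFB2, the heart isoform and a gene of the list of other glycolytic enzymes, had the largest rise of that list. Non-treated libraries had 0, 5 and 10 counts of it, and there were between 9 and 24 with CDK4/6i, but between 1411 and 1464 with ATRA and 2319 and 2354 with CDK4/6i+ATRA. Its mean level was 0.292 CPM in non-treated cells and 205 CPM with CDK4/6i+ATRA, a log2 fold change of 9.39 (SE 0.14, adjusted p = 1.12e-46). Per kilobase its level with CDK4/6i+ATRA was 19.4 CPM, beside 16.2 CPM for PFKFB3. PFKFB1, the liver isoform, had at most 5 counts in any library.

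PFKP encodes the platelet isoform of phosphofructokinase, the committed step of glycolysis (chromosome 10, 3067548 to 3136805, plus strand). It was at 123 CPM in each of the non-treated libraries, 76.2, 85.1 and 81.6 CPM with ATRA, 108, 108 and 107 CPM with CDK4/6i, and 39.5, 41.2 and 35.8 CPM with CDK4/6i+ATRA. The groups did not overlap, and the combined treatment lay far below the rest. It fell by 0.60 (SE 0.045, adjusted p = 1.03e-16) with ATRA, 0.19 (SE 0.044, adjusted p = 0.000223) with CDK4/6i and 1.66 (SE 0.053, adjusted p = 5.03e-32) with both, on the log2 scale. PFKL, the liver isoform, fell by 0.82 (SE 0.041, adjusted p = 1.22e-23) and PFKM, the muscle isoform, by 1.71 (SE 0.12, adjusted p = 3.13e-18) with both. The combined treatment thus lowered all genes that encode phosphofructokinase. PFKL held the largest share per kilobase in every group, and the share of PFKP was 35.1% ± 0.44 (SD, n = 3) without treatment, 32.7% ± 1.8 in ATRA cells, 36.0% ± 0.45 in CDK4/6i cells and 23.6% ± 2.0 in CDK4/6i+ATRA cells. The exact permutation p was 0.1 with ATRA and with both, and 0.2 with CDK4/6i.

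PKM encodes the pyruvate kinase of most tissues, from which alternative splicing gives the M1 and M2 forms (chromosome 15, 72199029 to 72231591, minus strand). The table holds 1 count for the gene in each library, so the forms were not analysed here. It had the most counts of the 10 genes, at 2068, 2003 and 1985 CPM in non-treated cells, at 3741, 3517 and 3665 CPM in ATRA cells, at 2587, 2488 and 2494 CPM in CDK4/6i cells and at 6945, 7331 and 7425 CPM in CDK4/6i+ATRA cells. The groups did not overlap, and CDK4/6i+ATRA was the highest. The log2 fold change was 0.85 (SE 0.045, adjusted p = 1.25e-22) with ATRA, 0.32 (SE 0.044, adjusted p = 1.85e-08) with CDK4/6i and 1.84 (SE 0.046, adjusted p = 8.92e-37) with both. PKLR, the gene of the liver and red cell pyruvate kinases, had at most 2 counts in any library. The list of splicing factors known to act on PKM held 4 genes (HNRNPA1, HNRNPA2B1, PTBP1 and SRSF3), and 4 of 4 fell with each treatment, where 35.5%, 27.9% and 40.7% of all tested genes were called lower with ATRA, CDK4/6i and both. Their median log2 fold change with both agents was -0.89, and the largest fall was that of HNRNPA2B1, from 1834 to 742 CPM (fell by 1.31, SE 0.042, adjusted p = 4.61e-32).

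LDHA encodes the lactate dehydrogenase subunit of muscle and of many tumours, which favours the making of lactate (chromosome 11, 18394563 to 18408425, plus strand). It was at 1177, 1154 and 1078 CPM in non-treated cells, at 571, 586 and 604 CPM in ATRA cells, at 872, 841 and 818 CPM in CDK4/6i cells and at 132, 137 and 143 CPM in CDK4/6i+ATRA cells. No groups overlapped, and the CDK4/6i+ATRA libraries were far below either agent alone. It fell by 0.95 (SE 0.041, adjusted p = 3.5e-26) with ATRA, 0.43 (SE 0.040, adjusted p = 4.16e-13) with CDK4/6i and 3.05 (SE 0.046, adjusted p = 5.2e-46) with both, on the log2 scale. LDHB, the heart subunit, fell by 0.85 (SE 0.045, adjusted p = 7.08e-23) with both agents, from 976 to 542 CPM. The LDHA share of LDHA and LDHB per kilobase was 29.8% ± 0.34 (SD, n = 3) without treatment, 24.3% ± 0.49 in ATRA cells, 23.2% ± 0.37 in CDK4/6i cells and 8.49% ± 0.36 in CDK4/6i+ATRA cells, with an exact permutation p of 0.1 for each treatment. Without division by length the share was 53.8%, 46.8%, 45.3% and 20.3% in the same order, so that LDHA then held more than LDHB in non-treated cells. The table lists LDHA also on a fix contig of chromosome 11, which raises its stated length from 2501 to 5002 bases. The LDHA shares per kilobase given above are therefore lower in every group than with the shorter length. With the shorter length the share with both agents was 15.6%. How reads that match both copies were counted is not given in the sources used here, so the level of LDHA is less certain than its change.

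Whether the agents acted together as the sum of their single effects was tested by the interaction, the log2 change with both agents minus the sum of the log2 changes with each. Of the 10 genes 4 were called above the sum, 4 below it and 2 (SLC2A3 and HK3) were not called, where 24.5% of all tested genes were called above and 27.0% below. LDHA departed most, with a sum of -1.38 and a combined change of -3.05, an interaction of -1.67 (SE 0.060, adjusted p = 3.73e-28). PFKP also fell by more than the sum, with an interaction of -0.87 (SE 0.071, adjusted p = 4.81e-15). PKM (0.67, SE 0.063, adjusted p = 5.46e-13) and HK1 (0.71, SE 0.14, adjusted p = 1.43e-05) rose by more than the sum. HK3 and SLC2A3, the genes with the largest rises, had the smallest differences from the sum.

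Scaling by library size alone moved the median interaction of all genes from -0.02 to -0.34. Under that scaling the interaction of SLC2A3 turned from 0.11 to -0.20 (adjusted p = 0.00462), and that of HK3 was -0.41 (adjusted p = 0.000273). The others kept their sign and call there, with -0.64 for SLC2A1, -0.56 for PFKFB3, 0.39 for HK1, 0.35 for PKM and 0.13 for HK2 among those that moved most. The interaction of PFKFB4 was 1.41 (adjusted p = 0.00558) and 0.86 (adjusted p = 0.143) without non-treated replicate 3.

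**Figure D4:**
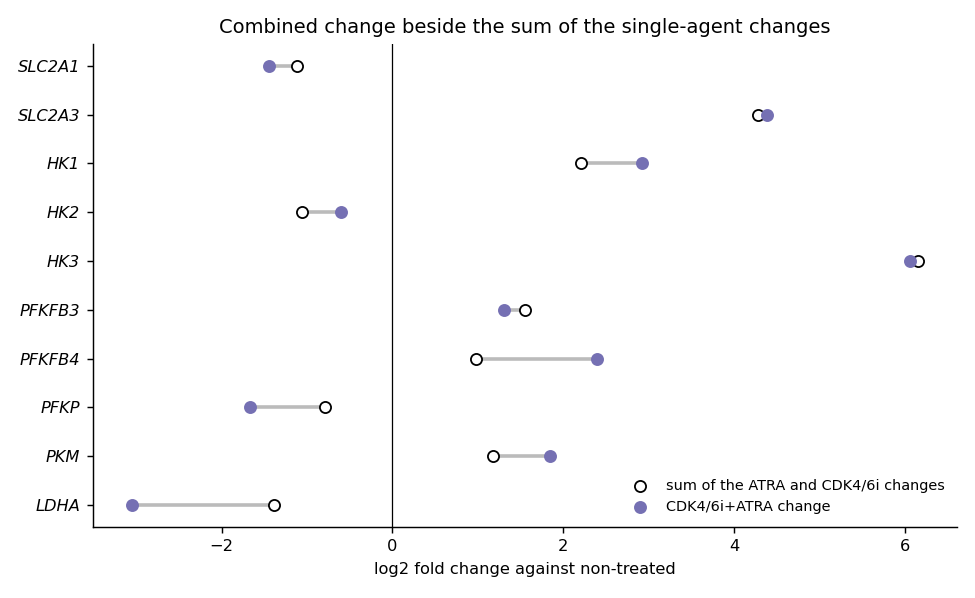
Log2 fold change against non-treated cells (horizontal axis) of the combined treatment (filled) beside the sum of the single-agent changes (open), for each gene. The grey line between them is the interaction, which is longest for LDHA (-1.67) and PFKFB4 (1.41) and shortest for HK3 and SLC2A3.

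The other genes of glucose metabolism were read from 6 lists with 87 genes, of which 60 passed the filter. With CDK4/6i+ATRA 24 of the 60 rose and 28 fell, with a median of -0.17 against 0.02 over all genes, where 41.0% of all tested genes were called higher and 40.7% lower. With ATRA 21 rose and 29 fell, beside 32.1% and 35.5% of all tested genes, and with CDK4/6i 25 rose and 15 fell, beside 28.3% and 27.9%. Among the other glucose transporters 1 of 4 tested genes rose and 2 fell (median -0.57). SLC2A5, the fructose transporter GLUT5, rose from 20.6 to 733 CPM with both agents, and SLC2A8, an intracellular transporter, fell from 6.89 to 0.875 CPM. Unlike SLC2A3, SLC2A5 fell with CDK4/6i alone, by 1.11 (SE 0.078, adjusted p = 2.47e-17).

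Of 16 other glycolytic enzymes tested, 5 rose and 7 fell with CDK4/6i+ATRA (median -0.21), with PFKFB2 and PFKM at the ends. For this list and the next, 41.0% of all tested genes were called higher and 40.7% lower. Of 16 genes of lactate and pyruvate handling, 4 rose and 9 fell (median -0.38). SLC16A3, the exporter MCT4, rose from 260.3 to 2015 CPM, by 2.95 (SE 0.045, adjusted p = 6.24e-46), and SLC16A1, the transporter MCT1, fell from 289.8 to 32.4 CPM, by 3.16 (SE 0.050, adjusted p = 4.05e-45). The table lists SLC16A1, like LDHA, on a fix contig as well as on its chromosome, so that its level is less certain than its change.

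Of 9 pentose phosphate genes 6 rose and 3 fell with CDK4/6i+ATRA (median 0.54). Beside the counts of this paragraph, 41.0% of all tested genes were called higher and 40.7% lower. RPE, the ribulose-phosphate epimerase, fell by 0.84 on the log2 scale. Of 10 glycogen genes 7 rose and 3 fell (median 0.20), with PYGM, the muscle phosphorylase, down from between 5 and 16 counts to between 1 and 3. Of 5 gluconeogenesis genes 1 rose and 4 fell (median -1.49). FBP1, which reverses the phosphofructokinase step, rose from 2.46 to 58.6 CPM, and SLC37A4, the glucose-6-phosphate carrier of the endoplasmic reticulum, fell from 37.4 to 1.92 CPM.

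**Figure D5:**
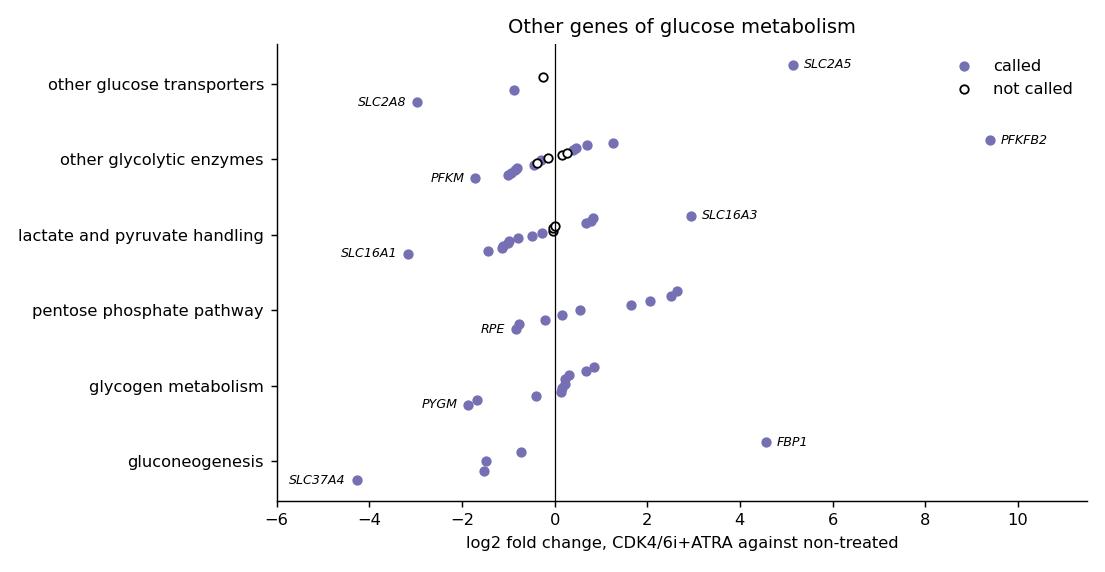
Log2 fold change between CDK4/6i+ATRA and non-treated cells of the 60 tested genes of 6 lists of glucose metabolism, filled where called at an adjusted p below 0.05 and open where not. Called genes at the ends of the lists that the text describes are named, and SLC2A5, PFKFB2, FBP1 and SLC37A4 lie farthest from 0.

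Of 13 tested regulators of glycolytic genes 10 rose and 2 fell with CDK4/6i+ATRA (median 0.75), beside 41.0% of all tested genes called higher and 40.7% lower. MYC, an activator of LDHA and other growth genes, was at 1292 CPM in non-treated cells, 151 CPM with ATRA, 1183 CPM with CDK4/6i and 84.4 CPM with both, a fall by 3.94 with both (SE 0.050, adjusted p = 3.71e-49). LDHA had the same order of groups with other spacing, since the log2 fold change with CDK4/6i was -0.13 for MYC and -0.43 for LDHA, and with ATRA -3.10 for MYC and -0.95 for LDHA. EPAS1, which encodes HIF-2α, was at 0 counts without treatment, 2 to 4 with CDK4/6i, 519 to 576 with ATRA alone and 698 to 766 with both agents. Its level was at least 173-fold above a floor of 3 counts per library with ATRA alone and at least 341-fold with both. HIF1A, named here after its values were seen, rose from 28.7 to 102 CPM. Of 12 tested hypoxia targets outside glycolysis 8 rose and 3 fell (median 0.41), beside the same 41.0% and 40.7%. ANGPTL4, a secreted inhibitor of lipoprotein lipase, had at most 3 counts without treatment and between 3 and 9 with CDK4/6i. It had between 94 and 141 counts with ATRA alone and between 1473 and 1575 with both agents. BNIP3, a mitophagy receptor, fell by 1.51 with both.

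The genes whose levels were most like those of the 3 members with the widest range were sought among 9300 tested genes with a mean of at least 5 CPM, by Pearson's r of log2 CPM over the 12 libraries. These libraries form 4 separated groups and share their treatments, so the coefficients describe the order and spacing of the groups. HK3 was most like ITGB2 (0.9997), the beta chain of leukocyte integrins, CTSD (0.9995), a lysosomal protease, and S100A9 (0.9993), a calcium-binding protein of neutrophils. SLC2A3 was most like MGAM (0.9983), the maltase-glucoamylase, MXD1 (0.9983), a partner of MAX that opposes MYC, and SERPINA1 (0.9976), a protease inhibitor. LDHA was most like UCHL5 (0.9992), a deubiquitinase, PAICS (0.9989), an enzyme of purine synthesis, and HSPD1 (0.9982), the mitochondrial chaperonin. HSPD1 was at 1162, 619, 942 and 194 CPM in non-treated, ATRA, CDK4/6i and CDK4/6i+ATRA cells, beside 1136, 587, 844 and 137 CPM for LDHA.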

How the data were processed

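The authors aligned RNA-Seq reads of HL60 cells to hg38 with STAR under the NCBI RefSeq annotation, and the submitters' processing notes name Trimmomatic 0.33 and STAR 2.7.11a. The deposited values are raw counts per gene, as whole numbers without normalization. The study names RSEM for counting, whereas the table has the column layout of featureCounts, and whether counting used strand is not given in the sources used here. The Length column, the summed exon length of each gene, was used as deposited. Groups and replicate numbers came from the labels of the samples.

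The genes, lists and motifs were chosen with earlier results of these data known. Genes were filtered with filterByExpr over the 4 groups and scaled by TMM with edgeR (version 4.0.16, under R 4.3.3). All 12 libraries entered 1 model with a term for each group, and 5 comparisons and the interaction were taken from it with the two-sided quasi-likelihood F test, with Benjamini-Hochberg adjustment over the 13318 tested genes and a threshold of 0.05. SE is the size of the fold change divided by the square root of F. The common biological coefficient of variation was 3.70%. Isoform shares are counts per kilobase as percent of the named pair or trio of genes, which leaves out other genes of a step such as PFKFB2 and SLC2A5, compared by an exact two-sided permutation test of 3 against 3 libraries. Floors and intervals cover counting error and the spread between libraries only.

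All members are named in every library. Each list is given by its counts and its called genes of largest rise and fall with CDK4/6i+ATRA, together with the isoform genes of the same steps. Some genes that this rule covers are not reported here. The likeness search took the 3 members with the widest range. Promoter windows were those nearest the start of the MANE Select transcript in GENCODE v44 on hg38. The calls were repeated with each library left out, with DESeq2 1.42.0 in place of edgeR, with its size factors or the bare library size in place of TMM, with a minimum of 10 counts everywhere or without a filter, with a block for the replicate number, with the compared groups alone, and with other definitions of the shares. The length of LDHA on the primary chromosome, and the hexokinase sum and the transporter share of CDK4/6i cells without division by length, were added after seeing the data. Figures were drawn with matplotlib 3.10.9.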

Additional observations from a re-analysis of the deposited data

Results flagged for a closer look

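For 8 of the 10 genes the effect of ATRA differed between cells with and without CDK4/6i by edgeR's test of the interaction (adjusted over all tested genes), beside 24.5% of all tested genes called above the sum of the single effects and 27.0% below it. On the log2 scale the interaction was -1.67 for LDHA, -0.87 for PFKP, -0.33 for SLC2A1 and -0.24 for PFKFB3. It was 1.41 for PFKFB4, 0.71 for HK1, 0.67 for PKM and 0.45 for HK2. For LDHA, ATRA lowered the level 1.94-fold in the absence of CDK4/6i and 6.14-fold in its presence. For PFKFB4, where ATRA raised the level 3.06-fold and 8.13-fold, the call rests on counts between 7 and 65 and was lost without non-treated replicate 3 (0.86, adjusted p = 0.143).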

How the results depend on the processing

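Over the 6 comparisons, 406 of 410 fold changes and interactions of the members under other settings, and 719 of 720 with a library left out, kept their direction and side of the threshold. With library size alone, the median of all genes moved, between CDK4/6i+ATRA and non-treated cells, from 0.02 to -0.25 and the share of called genes that were higher from 50.2% to 40.5%. The same shares went from 49.8% to 36.7% against CDK4/6i, from 53.0% to 31.6% against ATRA and from 47.5% to 18.5% for the interaction. Under that scaling the interaction of SLC2A3 reversed to -0.20 (adjusted p = 0.00462), that of HK3 became -0.41 (adjusted p = 0.000273), and the differences between CDK4/6i+ATRA and ATRA of PFKFB3 (0.05, adjusted p = 0.415) and PFKFB4 (0.48, adjusted p = 0.0660) were no longer called. Other called values that moved by more than 1.5 times there kept their calls, among them HK2 against ATRA (0.35). The interaction of PFKFB4 was between 0.86 and 1.64 with a library left out. Without division by length, the CDK4/6i+ATRA share of HK3 was 61.3%, of LDHA 20.3% and of SLC2A3 93.7%, the SLC2A3 share in CDK4/6i cells went from 47.5% to 50.6%, and the hexokinase sum relative to non-treated cells fell to 1.06 for ATRA, to 1.19 for CDK4/6i and to 2.21 for both agents, and with its length on the primary chromosome that of LDHA was 15.6%. At least 10 counts in every library removed PFKFB4, which then had no value. Same-numbered libraries of different groups deviated from their group means with correlations between -0.07 and 0.03, 0 of 18 pairs over 0.1. Of the 12 libraries, 3 were best correlated with their own number. No deviation shared by same-numbered libraries was seen, which cannot show whether they came from the same culture or day. The replicate block left 10, 9, 10, 10, 10 and 8 members called in the 6 comparisons, as without it, and 48 in place of 49 pathway genes for CDK4/6i+ATRA against ATRA, the other counts being equal. Depth limited PFKFB4 most, and genes with at most 5 counts in any library, such as PFKFB1, did not pass the filter on low counts.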
